A study of Mus musculus with 2 samples.

Results

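The 10 genes described here are neuronal immediate early genes: Fos, Fosb, Jun, Junb, Egr1, Egr2, Egr3, Egr4, Arc and Npas4. Their peaks were taken from the authors' annotation of a CUT&Tag peak list, by the gene symbol that the authors assigned to each peak. All 10 genes had at least 1 assigned peak, and together they had 76 of the 99797 peaks of the list. Of the 21911 protein-coding genes of GENCODE M21, 73.0% had an assigned peak.

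CUT&Tag maps a protein on chromatin by tethering the transposase Tn5 to an antibody. The libraries came from hippocampal tissue of C57BL/6J mice of the genotype CamK-PARIS, with no treatment, and comprised 1 library with an anti-FLAG antibody and 1 with an IgG antibody as the negative control, which the authors used when calling peaks. PARIS is a zinc-finger transcriptional repressor, captured here through a FLAG tag. The labels give neither the age or number of the mice nor what drives the transgene, and the IgG coverage was not used here, so every value below describes 1 anti-FLAG library without replicate error and no difference between conditions was tested.

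Immediate early genes are transcribed within minutes of synaptic activity, without a need for new protein synthesis. Fos and Jun proteins pair to form the transcription factor AP-1, Egr proteins are zinc-finger transcription factors, Npas4 is a neuron-restricted bHLH-PAS transcription factor, and Arc acts at synapses, where it promotes the internalization of AMPA receptors. Signalling reaches these genes largely through CREB, which binds the cAMP response element (CRE), and through serum response factor (SRF), which binds the CArG box, at promoters and at distal enhancers.

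Of the sequence under the peaks, 5 stretches are shown as examples for the motifs described below: the tall upstream peaks of Arc and Fos, and the part of the start-site peaks of Fos, Fosb and Egr4 that lies upstream of the gene. They were read from GRCm38.p6 (mm10) and are given 5′ to 3′ in the direction of transcription of the named gene. Capitals mark every match to the CRE core TGACG, the full CRE TGACGTCA, the AP-1 site TGANTCA, the EGR site GCGNGGGCG, the CArG box, the MEF2 site and the insulin response sequence (TATTTTT or TATTTTG), the reported binding element of PARIS, on either strand. Matches can overlap, since every full CRE holds the core. None of the stretches overlapped an annotated exon of these genes.

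Arc, upstream peak (chr15:74679204-74679503, minus strand): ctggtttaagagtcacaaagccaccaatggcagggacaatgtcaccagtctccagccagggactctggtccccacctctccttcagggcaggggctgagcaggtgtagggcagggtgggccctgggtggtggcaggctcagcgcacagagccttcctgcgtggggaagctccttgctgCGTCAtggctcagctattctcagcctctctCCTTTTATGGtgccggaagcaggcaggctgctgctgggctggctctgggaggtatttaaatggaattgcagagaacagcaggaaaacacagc
Fos, far upstream peak (chr12:85436270-85436569, plus strand): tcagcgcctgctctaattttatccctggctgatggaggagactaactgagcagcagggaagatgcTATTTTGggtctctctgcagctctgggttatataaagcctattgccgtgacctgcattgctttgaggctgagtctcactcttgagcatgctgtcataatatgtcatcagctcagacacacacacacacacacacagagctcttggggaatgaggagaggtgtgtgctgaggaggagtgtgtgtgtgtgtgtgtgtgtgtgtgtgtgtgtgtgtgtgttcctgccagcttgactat
Fos, upstream of the start (chr12:85473560-85473859, plus strand): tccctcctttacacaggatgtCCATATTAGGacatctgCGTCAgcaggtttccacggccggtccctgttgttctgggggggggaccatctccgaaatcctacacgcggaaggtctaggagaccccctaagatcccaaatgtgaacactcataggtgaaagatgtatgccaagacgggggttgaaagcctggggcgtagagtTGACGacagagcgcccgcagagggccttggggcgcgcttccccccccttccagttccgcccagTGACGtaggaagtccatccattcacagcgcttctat
Fosb, upstream of the start (chr7:19310082-19310381, minus strand): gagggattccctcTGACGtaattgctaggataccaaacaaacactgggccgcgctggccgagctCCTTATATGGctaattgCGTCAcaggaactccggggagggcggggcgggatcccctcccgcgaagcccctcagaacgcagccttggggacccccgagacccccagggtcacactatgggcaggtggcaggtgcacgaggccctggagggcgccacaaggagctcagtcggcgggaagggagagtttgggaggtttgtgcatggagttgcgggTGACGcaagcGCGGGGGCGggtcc
Egr4, upstream of the start (chr6:85513620-85513755, minus strand): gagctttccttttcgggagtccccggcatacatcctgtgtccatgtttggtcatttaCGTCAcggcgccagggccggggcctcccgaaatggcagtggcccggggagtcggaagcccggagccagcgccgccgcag

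The first 2 stretches are centred on the region of maximum signal of the peak. The other 3 run from 330 to 31 bases upstream of the gene start, cut at the edge of the peak for Egr4.

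Most of these genes had peaks at or beside their transcription start site (TSS). A peak within 1 kb of a TSS was assigned to 8 of the 10 genes, against 42.5% of all protein-coding genes. The exceptions were Arc and Egr1. A peak covered the annotated 5′ end of the gene at Fos, Fosb, Egr3, Egr4 and Npas4, which is 5 of 10 against 20.4% of protein-coding genes. Counting any annotated transcript start added Egr2 and Junb, for 7 of 10 against 28.9%. With so few genes these counts describe the set and carry no test.

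**Figure D1:**
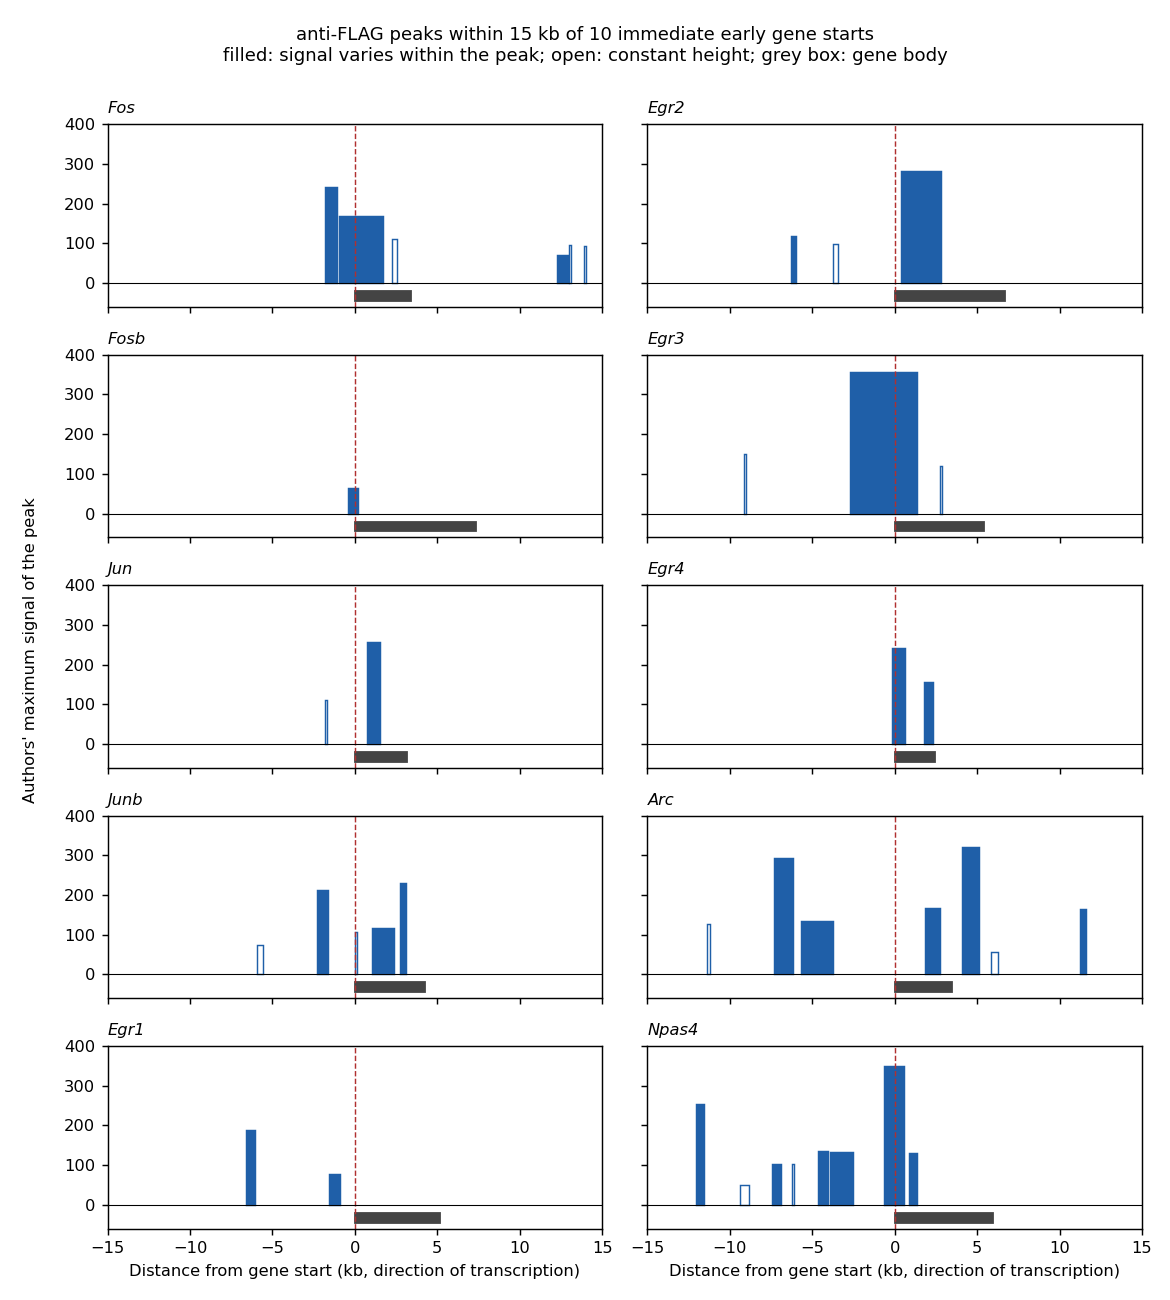
Peaks assigned to each of the 10 genes within 15 kb of its gene start, drawn to scale; the horizontal axis is the distance from the start in kb in the direction of transcription, the height of a bar is the authors' maximum signal and its width the width of the peak. Filled bars vary in signal, open bars have constant height, and the grey box is the gene body; a peak covers the start (dashed line) at Fos, Fosb, Egr3, Egr4 and Npas4, while Arc has peaks on both sides and none between -3737 and 1819 bp.

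The authors' maximum signal is the highest coverage within a peak, and the total signal is the coverage summed over its bases; their scaling is not given in the sources used here. A constant-height peak is one whose total signal is at least 99% of the maximum signal times the width, so that the coverage is flat from edge to edge.

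The Fos family showed 1 gene with many peaks and 1 with a single low one. Fos (ENSMUSG00000021250, chromosome 12, 85473890 to 85477273, plus strand) had 10 assigned peaks with maximum signals of 20, 71, 93, 93, 96, 110, 142, 170, 241 and 338. The peak over its start was 2679 bp wide, ran from -977 to 1701 bp of the gene start, had a maximum of 170 and ranked 1404 of all peaks by total signal. Its region of maximum signal lay in an intron, 649 bp after the gene start and -148 bp from the start of a shorter transcript to which the authors assigned it. A second peak directly upstream, at -1528 bp, was taller, with a maximum of 241. The tallest Fos peak, with a maximum of 338, stood far from the gene, at -37463 bp (85436143 to 85436903, distal intergenic), and the downstream side of the gene held 5 further peaks between 11302 and 40144 bp by the authors' distances.

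Fosb (ENSMUSG00000003545, chromosome 7, 19302696 to 19310051, minus strand), which encodes another AP-1 partner of Jun, had 1 peak (19309888 to 19310496). It spanned the gene start from -445 to 163 bp, was not of constant height and reached a maximum of 64, a percentile of 24.1 among all peaks. It was the lowest of the 10 genes by its highest peak.

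The Jun family had no peak over the annotated gene start. Jun (ENSMUSG00000052684, chromosome 4, 95049034 to 95052222, minus strand) had 13 assigned peaks with maximum signals from 18 to 258 and a median of 111. The tallest, 95050721 to 95051457, lay inside the gene from 765 to 1501 bp after the start, with its maximum in a UTR, and ranked 1366 of all peaks by total signal. Of the other peaks, 1 lay at -1712 bp with a constant height, and 11 lay more than 20 kb upstream. Of those 11, 10 fell within Junos, an annotated antisense gene, and the tallest of them reached 215 at -110786 bp.

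Junb (ENSMUSG00000052837, chromosome 8, 84974484 to 84978718, minus strand) carried 5 assigned peaks between -5544 and 3024 bp of its TSS, with maximum signals of 75, 107, 118, 212 and 231. The peak nearest the start was narrow (126 bp), of constant height, and began 5 bp after the annotated 5′ end. The 2 tallest flanked the gene start at -2015 bp (212) and 3024 bp (231). Without constant-height peaks Junb therefore had no peak within 1 kb of a TSS.

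The Egr family had the peak with the highest total signal of the set. Egr3 (ENSMUSG00000033730, chromosome 14, 70077203 to 70082614, plus strand) had 14 assigned peaks, the most of the 10 genes, with maximum signals from 73 to 356 and a median of 128. Its start-site peak, 70074485 to 70078583, was 4099 bp wide and ran from -2718 to 1380 bp of the gene start. It had a maximum of 356 and a total signal of 470339, which ranked 51 of the 99797 peaks. Another 11 Egr3 peaks lay more than 20 kb upstream, all of them in introns of the neighbouring gene Pebp4. The 2 tallest of these reached 286 at -82226 bp and 266 at -73979 bp, and both were over 1 kb wide.

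Egr2 (ENSMUSG00000037868, chromosome 10, 67535475 to 67542188, plus strand) had 9 assigned peaks with maximum signals of 39, 58, 80, 99, 118, 123, 149, 203 and 281. The tallest, 67535876 to 67538300, began 401 bp after the gene start and ended 2825 bp after it, and ranked 405 of all peaks by total signal. It covered 3 of the 6 annotated Egr2 transcript starts but not the most upstream one. The other 8 peaks lay upstream, between -3455 and -93858 bp, and 6 of them were of constant height.

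Egr4 (ENSMUSG00000071341, chromosome 6, 85511121 to 85513589, minus strand) had 2 peaks, neither of constant height. One covered the gene start with a maximum of 242 (85512979 to 85513755) and the other lay near the 3′ end of this short gene with a maximum of 155. Egr1 (ENSMUSG00000038418, chromosome 18, 34859823 to 34864984, plus strand), whose product has known roles in memory, had no peak at its start. Its 7 peaks had maximum signals of 64, 64, 79, 85, 88, 104 and 188. None touched the gene body. The nearest ended -880 bp from the gene start with a maximum of 79, and the tallest stood at -6547 bp.

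Arc (ENSMUSG00000022602, chromosome 15, 74669083 to 74672570, minus strand) had tall peaks on both sides of the gene and none at its start. Its 7 peaks had maximum signals of 56, 126, 135, 165, 168, 292 and 322. The 292 peak lay at -6764 bp upstream (74678709 to 74679881, distal intergenic, 1173 bp) and had the highest total signal of the gene, 137566, rank 1795 of all peaks. The 322 peak lay past the 3′ end, at 4597 bp (74667431 to 74668509). The peak nearest the TSS, at 2009 bp in an intron, reached 168. Among the 10 genes, Arc was the one with no peak reaching within 1 kb of the annotated gene start; of all protein-coding genes, 39.3% had such a peak.

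Npas4 (ENSMUSG00000045903, chromosome 19, 4984355 to 4990316, minus strand) carried 8 assigned peaks between -11621 and 510 bp of its TSS. Their maximum signals were 50, 103, 104, 132, 134, 135, 253 and 349. The tallest covered the gene start (4989764 to 4990986, from -670 to 552 bp), with its region of maximum signal 19 bp from the TSS. The 253 peak stood at -11621 bp, and 5 lower peaks lay between them.

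Ordered by the highest maximum signal among a gene's assigned peaks, the genes ran Egr3 (356), Npas4 (349), Fos (338), Arc (322), Egr2 (281), Jun (258), Egr4 (242), Junb (231), Egr1 (188) and Fosb (64). Without replicates it cannot be said which neighbours in this order differ. As percentiles among all peaks these values had a median of 96.7 over the 10 genes, against 66.5 over all protein-coding genes. The median fell to 85.0 when the peaks were ranked by total signal divided by width instead. An assigned peak in the top 10% by maximum signal was present for 8 of the 10 genes, against 25.1% of protein-coding genes, and the genes without one were Fosb and Egr1. These comparisons take the highest of a gene's assigned peaks, and the 10 genes had a median of 7.5 peaks against 2. The part of peak number in them was not tested. The values for protein-coding genes also include genes without an assigned peak, placed at the lowest percentile, and 73.0% had one. Counted by peak, the top 10% held 21.1% of the peaks of the 10 genes, against 10.1% of all peaks.

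**Figure D2:**
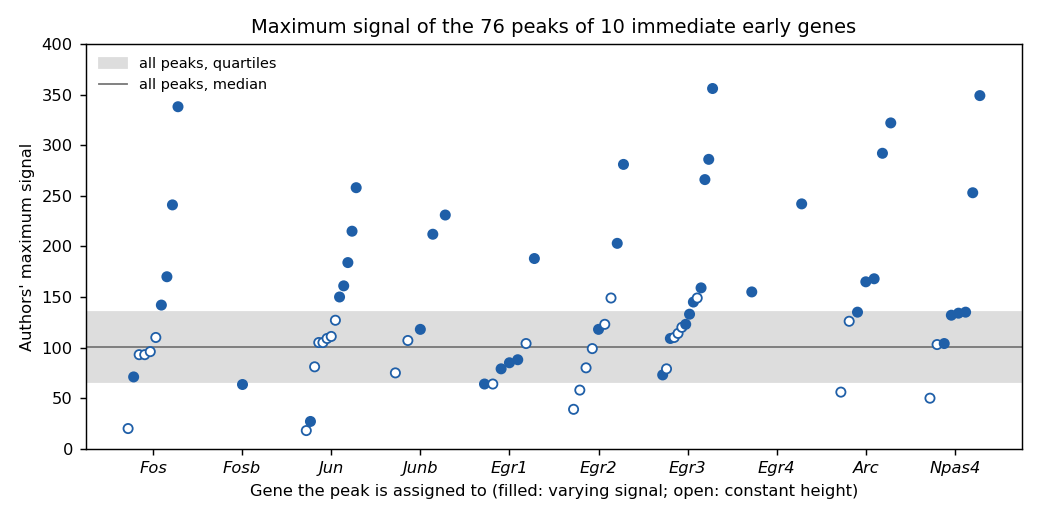
The authors' maximum signal (vertical axis, no unit given) of each of the 76 peaks, by assigned gene; filled points are peaks whose signal varies, open points constant-height peaks, the grey band the quartiles of all 99797 peaks (66 to 135) and the line their median (101). The highest points belong to Egr3 (356), Npas4 (349) and Fos (338), and the single Fosb peak (64) lies below the band.

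The 76 peaks were more often wide, tall and variable in signal than the whole list. Of these peaks, 45 (59.2%, 95% Wilson interval 48.0 to 69.6) were not of constant height, against 36.7% of all peaks. A width of at least 1 kb was seen in 14 (18.4%, 11.3 to 28.6), against 4.89%, and a maximum signal in the top 10% in 16 (21.1%, 13.4 to 31.5), against 10.1%. The median width was 455 bp against 363 bp, and the median maximum signal 121.5 against 101. The intervals cover counting error only, and peaks of 1 locus are not independent.

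By distance to a TSS the counting intervals of the set held the values of the whole list. Peaks within 3 kb of a TSS made up 18 of 76 (23.7%, 15.5 to 34.4), against 24.6% of all peaks, and peaks more than 20 kb from a TSS made up 35 of 76 (46.1%, 35.3 to 57.2), against 43.9%. The authors' class of distal intergenic peaks was more frequent, with 34 of 76 (44.7%, 34.1 to 55.9) against 31.9%. Peaks within 1 kb of a TSS were 9 of 76 (11.8%, 6.36 to 21), against 15.3%. Most of the peaks more than 20 kb away belonged to Jun (11), Egr3 (11) and Egr2 (6). Arc, Npas4, Junb, Egr4 and Fosb had none. By the midpoint of their summit region, 50 peaks lay upstream of their gene, 13 downstream, 5 in introns, 5 in UTRs, 2 in coding exons and 1 in an exon of a non-coding transcript.

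These genes are short, with a median length of 4.70 kb against 17.4 kb for protein-coding genes, and no member was longer than 7.36 kb. Within 5 kb to either side of the gene start, peaks of any assignment covered 4217 bp at Egr3, 3732 bp at Npas4, 3717 bp at Fos, 3141 bp at Arc, 2720 bp at Egr2 and 2461 bp at Junb. These 6 genes exceeded the 90th percentile of protein-coding genes (1441 bp), as did 9.99% of protein-coding genes by construction. Egr4 had 1313 bp, Jun 791 bp, Egr1 673 bp and Fosb 609 bp. All 10 were above the median of 187 bp, and Egr3 stood at the 99.8th percentile. Arc reached the 99.0th percentile without a peak at its start.

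**Figure D3:**
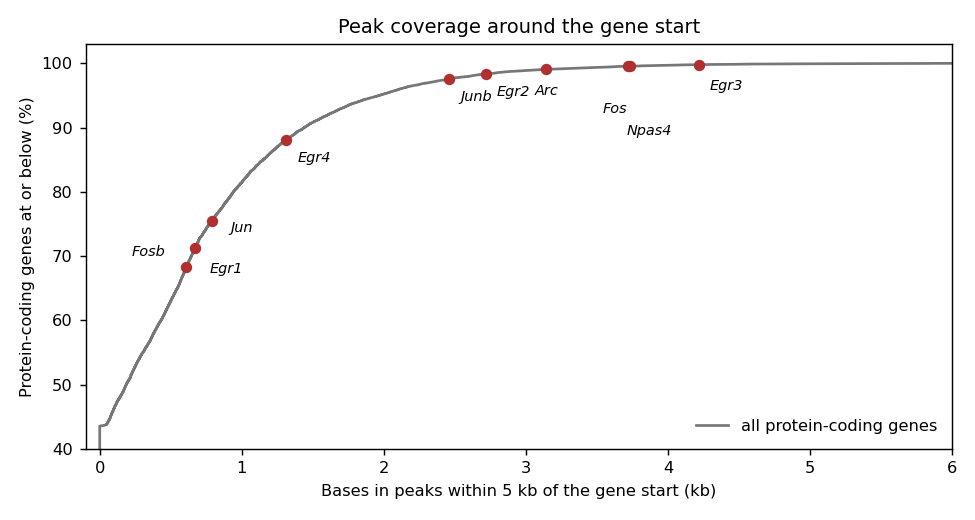
Bases covered by peaks within 5 kb of the gene start (horizontal axis, kb) against the share of the 21911 protein-coding genes at or below that value (vertical axis, percent, from 40); the line is all protein-coding genes and the points the 10 genes. Egr3, Npas4, Fos, Arc, Egr2 and Junb have 2461 bp or more and sit on the flat upper part, and Fosb (609 bp) is the lowest of the 10.

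Starts rich in CpG dinucleotides had peaks more often across the genome, and 6 of the 10 genes (Fos, Fosb, Jun, Junb, Egr3 and Egr4) were among the 7304 protein-coding genes with the highest observed over expected CpG in the 1 kb around the start. Among those, 35.3% of genes had a peak over the gene start, 61.3% had an assigned peak within 1 kb of a TSS, and the median peak coverage within 5 kb was 559 bp. The ratios of the 10 genes ran from 0.452 (Npas4) to 0.840 (Fosb). Of the 6 genes named, Fos, Fosb, Egr3 and Egr4 had a peak over the gene start, and of the others Npas4 did. All 6 had an assigned peak within 1 kb of a TSS, as did Egr2 and Npas4 but not Arc and Egr1. The part of base composition in the counts at the gene starts and in the motif shares below was not tested. The median GC content of 200 bp windows at the region of maximum signal was 53% for the 76 peaks and 49% for all peaks, and for peaks within 1 kb of a TSS it was 60.5% and 57%.

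The 5 printed stretches are examples, and the promoter positions were set after the data were seen. Of the 5, 4 held a CRE core or a CArG box. The stretches cover 3 of the 5 peaks over a gene start, without those of Egr3 and Npas4, and give no share over the set. The Arc upstream peak held a CRE core at -6755 bp and a CArG box at -6725 bp from the gene start. As background, a synaptic activity-responsive enhancer is known upstream of Arc. The stretch upstream of Fos held a CArG box at -309 bp and CRE cores at -292, -129 and -66 bp. The Fosb stretch held a CArG box at -266 bp, CRE cores at -317, -249 and -54 bp, and an EGR site at -44 bp. The Egr4 stretch held 1 CRE core at -109 bp. The far upstream Fos peak held 1 insulin response sequence at -37555 bp, the only one in the 5 stretches. A match is a description of the letters and not a measured binding site.

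Motif shares over the set depended on the window and on the constant-height peaks. In 300 bp windows at the region of maximum signal, a CRE core was present in 13 (17.1%, 10.3 to 27.1), against 11.3% of all peaks, and a CArG box in 4 (5.26%, 2.07 to 12.8), against 1.33%. The GC box was in 15 of these windows (19.7%, 12.3 to 30), against 11.3%. These windows run past the edges of narrow peaks, and 22 of the 76 peaks were under 300 bp wide. The match lay inside the peak for 3 of the 4 CArG boxes, those of the Arc upstream peak, the Fosb peak and the Junb peak at 2181 bp, and outside it for a Jun peak at -65061 bp that was 122 bp wide. At least 1 match lay inside the peak for 12 of the 13 windows with a CRE core and 13 of the 15 with a GC box. The CRE core and the CArG box together were present in 3 of the 76 windows, those of Arc, Fosb and Junb, against 0.143% of all peaks. In 200 bp windows the CRE core was in 6 (7.89%, 3.67 to 16.2) against 7.79%, and the AP-1 site was in 6 (7.89%) against 9.41%. The full CRE was in 0 of 76 (up to 4.81%) against 0.300%, and the MEF2 site in 0 of 76 against 2.75%. The EGR site was in 1 (1.32%), the Egr4 start-site peak, against 0.783%. The GC box was in 11 (14.5%, 8.28 to 24.1) against 8.46%, and the CArG box in 2 (2.63%) against 0.878%. The insulin response sequence was also in 6 of the 200 bp windows (7.89%, 3.67 to 16.2), against 9.97% of all peaks. These 6 were peaks of Egr2, Egr3, Fos and Jun, and none lay within 1 kb of a TSS.

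Among the 45 peaks not of constant height, set beside all such peaks, the 300 bp windows held a CRE core in 12 (26.7%, 16 to 41), against 13.1%, and a CArG box in 4 (8.89%, 3.51 to 20.7), against 1.19%. The GC box was in 9 (20%, 10.9 to 33.8), against 18.3%. Its interval, which lay above the list over all 76 peaks, held the background here. As above, the intervals cover counting error only, peaks of 1 locus are not independent, and no test was made. In 200 bp windows the CArG box was in 2 of the 45 (4.44%, 1.23 to 14.8), against 0.796%. The CRE core was in 5 of these 200 bp windows (11.1%, 4.84 to 23.5), against 9.17%, so that its interval held the background. In 400 bp windows the CRE core was in 15 (33.3%, 21.4 to 47.9), against 16.8%.

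RefSeq promoter sequences of the same build, from 250 bases before to 50 after a gene's start, were matched for 7 of the 10 genes and not for Arc, Egr1 and Egr3. These 7 are counted as genes, and Egr2 had 5 promoter entries. A CRE core was present in 5 of the 7 (Egr4, Fos, Fosb, Junb and Npas4), against 21% of 27025 promoters. The GC box GGGCGG was present in 5 (Egr2, Fos, Fosb, Jun and Npas4), against 35.9%. Both motifs hold a CpG, and the part of base composition in these shares was not tested. The insulin response sequence was present in the Jun promoter, against 11.5% of promoters. The CArG box was in 0 of the 7 against 1.57%, the full CRE in 0 against 1.88% and the AP-1 site in 0 against 7.93%. The EGR site was in the Fosb promoter, against 5.55%, and the MEF2 site in that of Jun, against 3.26%. The CArG boxes upstream of Fos and Fosb given above lie more than 250 bases before the gene start.

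Other genes of the activity-regulated programme, together with 7 regulators that act on immediate early genes, were taken from a list of 42. All 42 had an assigned peak, 31 had 1 within 1 kb of a TSS (42.5% of protein-coding genes) and 19 had a peak over the gene start (20.4%). By role, a peak within 1 kb of a TSS and a peak over the gene start were found for 5 and 2 of 7 other AP-1 and ATF genes, 6 and 4 of 9 other early transcription regulators, 6 and 4 of 9 early effectors, and 5 and 3 of 7 late response genes. The orphan nuclear receptors Nr4a1, Nr4a2 and Nr4a3 all had a peak within 1 kb of a TSS, with maxima of 242, 23 and 160. Of these 3, only Nr4a3 had a peak over the gene start. Among the regulators that act on immediate early genes, 6 of 7 had a peak within 1 kb of a TSS and 5 a peak over the gene start: Creb1 (212), Crtc1 (330), Srf (210), Elk1 (424) and Mef2d (358). The highest peaks within 1 kb of a TSS belonged to Bhlhe40 (1046), a bHLH repressor of the circadian clock, Bdnf (535), which encodes a neurotrophin, and Fosl2 (518), which encodes another Fos-family partner of Jun. The highest peak within 1 kb of a TSS among the 10 genes, 356 at Egr3, was lower than these 3. The median number of assigned peaks over the 10 genes was 7.5, against 6 in the list of 42 and 2 for all protein-coding genes.

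**Figure D4:**
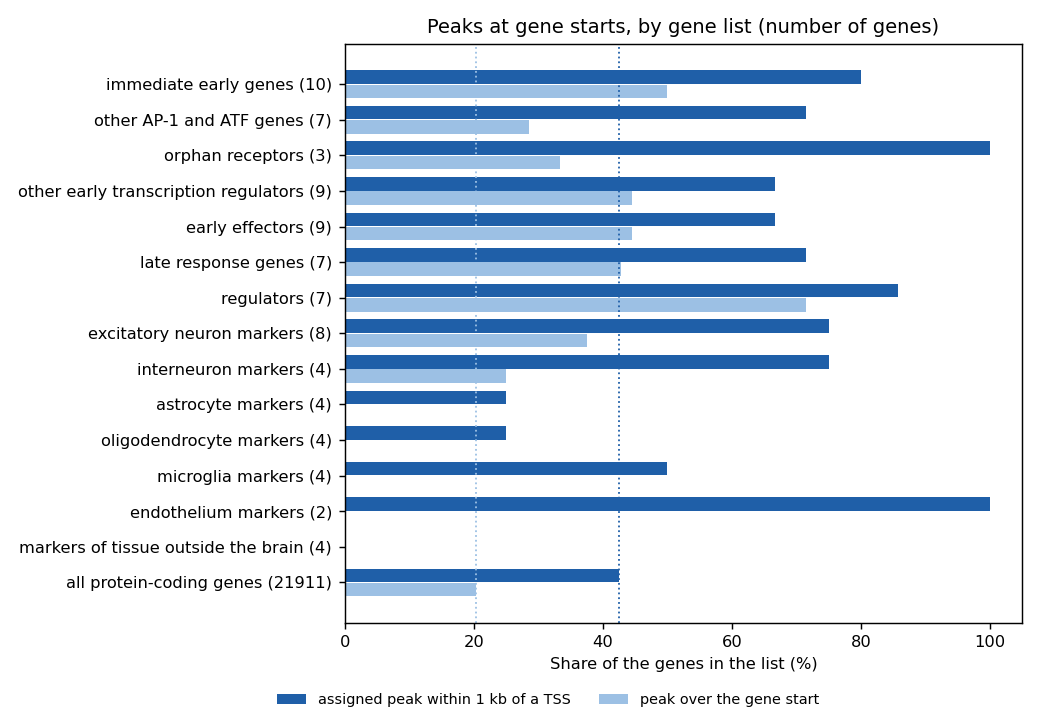
Share of genes (horizontal axis, percent) with an assigned peak within 1 kb of a TSS (dark bars) and with a peak over the gene start (light bars), by gene list, with the number of genes in parentheses; dotted lines mark all protein-coding genes (42.5% and 20.4%). The 10 immediate early genes reach 80% and 50%; lists of 2 to 4 genes move in large steps.

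Markers of the labelled tissue were checked in the same way, as peaks and not as expression. Of 8 excitatory neuron markers, 6 had an assigned peak within 1 kb of a TSS, against 42.5% of protein-coding genes. A peak over the gene start was found for 3, against 20.4%: Camk2a (300), Grin2b (442) and Slc17a7 (228). The labels do not give what drives the CamK-PARIS transgene, and a part of transgene sequence in the Camk2a peak was not tested. Neurod2 (176), Prox1 (119) and Bcl11b (95) had a peak within 1 kb but none over the start. Neurod6 and Zbtb20 had no peak within 1 kb. Of 4 interneuron markers 3 had a peak within 1 kb and 1 over the start, and for 4 microglia and 2 endothelium markers these counts were 2 and 0, and 2 and 0. Of the 4 astrocyte and the 4 oligodendrocyte markers 1 each had a peak within 1 kb of a TSS and none had a peak over the gene start, and the 4 genes of tissue outside the brain had neither, with Alb and Ins2 lacking any assigned peak.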

How the data were processed

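Per the labels' protocols, the authors mapped trimmed read pairs to mm10 (Bowtie2), discarded duplicates and reads of low quality, and used SEACR with the IgG library as control to call anti-FLAG peaks; versions, SEACR normalization mode and stringency are not given in the sources used here. The deposited signal columns hold total and maximum coverage per peak. A deposited table gives each region of maximum signal a gene, a transcript and other values such as its distance to the TSS, by a tool that is not stated. Its total signal equalled that of the peak list for 100% of 99782 annotated peaks. No depth is given by the files, so the depth is unknown.

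Members were the peaks whose deposited symbol was 1 of the 10 genes. The members, lists and measures were chosen with earlier results of these data known. The named genes were the 10 members, the 3 of the wider list with the highest peak within 1 kb of a TSS, and any without a peak. The orphan receptors, regulators and cell type markers printed with values, and Dusp1 and Vgf, were picked after their values were seen. Gene starts came from GENCODE M21. Peaks of other genes were counted through the assigned transcript, which was in GENCODE M21 for 99.2% of annotated peaks. Peaks over a gene start overlap it by at least 1 bp, whatever their assigned gene. Some further stretches of sequence are not reported here. The 300 bp motif windows, the place of their matches, the motif shares without constant-height peaks, the count over any transcript start, the coverage within 5 kb, the CpG comparison and the position of the printed promoter stretches were added after the data were seen. Shares carry Wilson 95% intervals. Overlap and merging steps were tested on simulated data. Python 3.11.15, pandas 2.3.3, scipy 1.17.1 and pysam 0.24.0 were used. Alternatives were stricter or merged peak sets, other distances, assignments, rankings and windows.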

Additional observations from a re-analysis of the deposited data

How the results depend on the processing

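No paired analysis was possible because each antibody has 1 library. The 9 results were recomputed under 40 alternatives. Of these, 25 left a count within 1.5 times its value, or a share within its counting interval, and 15 moved. For the median percentile of the highest peak the interval (96.5 to 96.8) counted peaks and is no error of a median over 10 genes. Values outside it were labelled as moved. Without constant-height peaks 45 of the 76 peaks were left, and among the top 10% by maximum signal 16 peaks were left, with 5 genes having a peak within 1 kb of a TSS, 3 a peak over the gene start, and 43.8% of peaks within 3 kb. Those 2 sets hold fewer peaks by construction. Counting peaks that overlap the gene body or 10 kb either side gave 45. With a peak anywhere within 1 kb of the gene start the count of genes was 9, and with the region of maximum signal over it 1. The median percentile of the highest peak was 98.3 by total signal, 85.0 by total signal over width and 95.7 with only peaks within 5 kb of a TSS. The CRE core was in 22.4% of 400 bp windows (14.5% over all peaks) and 17.1% of 300 bp windows (11.3% over all peaks). Without constant-height peaks it was in 26.7% of 300 bp windows, against 13.1% over all such peaks. The full CRE was in 0% of 200 bp windows (upper Wilson bound 4.81%), against 0.300% over all peaks. The alternatives for any transcript start, for 300 bp windows, for the CRE core without constant-height peaks and for the coverage around the start (5 to 7 genes) were added after seeing the data. With 1 library, no error between animals can be given.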

Other observations

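Peaks near these genes were in part assigned to neighbours. Within 10 kb of the Junb gene body lay 10 peaks, of which 5 were assigned to other genes. Rnaseh2a, which encodes a subunit of ribonuclease H2, had 2 of them, with maximum signals of 249 and 124. Prdx2, which encodes a peroxiredoxin, had 1 (55), and Hook2 had 2 (186 and 51). The Hook2 peak of 186 stood -6786 bp from the start of Junb. Within 10 kb of Egr2 a peak assigned to the neighbouring gene Ado reached 327, above the 281 of the tallest Egr2 peak. Fosb, Egr1 and Egr4 had 1 such peak each, assigned to Rtn2 (93), Reep2 (58) and Fbxo41 (89). At Fos, Jun, Egr3, Arc and Npas4 every peak within 10 kb of the gene body was assigned to the gene itself.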
